A study of Homo sapiens with 21 samples.

Results

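The regions described here were enriched in immunoprecipitation of Flag-tagged estrogen receptor beta (ER-beta). They were listed in vehicle-treated cells and overlapped no region listed after estradiol and none listed after LY500307. They were chosen by absence from both ligand lists (no overlap of 1 bp or more), on chromosomes 1 to 22 and X. This gave 229 members among 2902 vehicle regions, against 26861 estradiol and 10045 LY500307 regions. Chromatin immunoprecipitation followed by sequencing was done with the M2 antibody against the Flag tag in MDA-MB-231, a triple-negative breast cancer cell line that carries a doxycycline-inducible, Flag-tagged ER-beta. All cells, the vehicle controls included, were grown in medium with charcoal-stripped serum, which is low in steroids, and received doxycycline at 100 ng/ml for 24 h, so the receptor was induced in every group. For the last 3 h they received estradiol at 1 nM, LY500307, an agonist selective for ER-beta, or ethanol as vehicle. The dose of LY500307 is 1 nM by the titles and 10 nM by the sample characteristics. The labels name 4 ChIP and 3 input libraries per treatment, while the protocol speaks of triplicates, and the authors gave 1 pooled list of enriched regions per treatment. No value below therefore has a replicate error, no difference between treatments was tested, and the depth behind each list is unknown. A region missing from a list did not pass the authors' peak calling there, which does not show that the receptor was absent.

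ER-beta, encoded by ESR2, is a nuclear receptor: a transcription factor whose shape and partner proteins change when a hormone fills its ligand pocket. Estrogen receptors bind as dimers to the estrogen response element (ERE), a palindrome with a short spacer between its arms, and can also reach DNA through other factors such as AP-1 (FOS and JUN proteins) or SP1. Receptors without ligand can be found on chromatin as well.

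The strongest members were stacked on the coding exons of ESR2 itself and of HDAC7, a class IIa histone deacetylase gene. Others lay at CpG-rich gene starts, often beside a ligand region. The most numerous lay in introns and between genes, in DNA of lower G+C content that often held purine-rich patterns and almost never an ERE. Regions listed with LY500307 but not with estradiol resembled the members as a whole in patterns and EREs. Sequences of exon members and of intronic and intergenic members are given here because the descriptions that follow turn on them. All are hg38, 5′ to 3′ on the strand named, and were taken from inside the member regions.

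For ESR2 and HDAC7, capitals mark the last 80 coding bases of an exon and lower case the first 20 bases of the next intron, to show that these members ran across the exon's edge. All are on the minus strand, which is the strand of both genes. They are exon 2 of ESR2 (chr14:64282604-64282703), exon 3 of ESR2 (chr14:64279961-64280060), exon 5 of HDAC7 (chr12:47798088-47798187) and exon 17 of HDAC7 (chr12:47789793-47789892).
ESR2 exon 2: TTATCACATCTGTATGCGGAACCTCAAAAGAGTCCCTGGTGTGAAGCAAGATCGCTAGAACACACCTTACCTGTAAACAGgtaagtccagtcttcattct
ESR2 exon 3: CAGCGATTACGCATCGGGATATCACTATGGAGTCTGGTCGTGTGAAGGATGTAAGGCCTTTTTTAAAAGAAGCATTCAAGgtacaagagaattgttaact
HDAC7 exon 5: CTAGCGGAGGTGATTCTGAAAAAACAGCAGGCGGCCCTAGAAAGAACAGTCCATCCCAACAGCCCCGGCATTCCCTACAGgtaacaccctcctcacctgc
HDAC7 exon 17: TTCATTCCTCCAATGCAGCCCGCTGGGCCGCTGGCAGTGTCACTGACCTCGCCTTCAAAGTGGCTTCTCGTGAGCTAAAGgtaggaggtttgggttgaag

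For members in introns or between genes, capitals mark a purine-rich pattern within 50 bp of the summit, the base of highest signal. The examples are those with the highest -log10 q among members with the pattern so placed, and the patterns were chosen after the members' sequences had been read. The first 3 windows hold GGGAGA followed, after 5 or 6 bases, by AAGG (the spaced pair). They lie in intron 12 of CNTNAP2 (chr7:147595084-147595184, plus strand), between genes with KCNA5 as the nearest (chr12:5155422-5155522, plus strand) and in intron 5 of CHRM3 (chr1:239818285-239818385, minus strand).
CNTNAP2: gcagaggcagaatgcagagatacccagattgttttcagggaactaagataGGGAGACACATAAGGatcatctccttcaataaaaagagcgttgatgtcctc
KCNA5: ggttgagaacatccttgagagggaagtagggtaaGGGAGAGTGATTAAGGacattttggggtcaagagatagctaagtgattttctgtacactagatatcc
CHRM3: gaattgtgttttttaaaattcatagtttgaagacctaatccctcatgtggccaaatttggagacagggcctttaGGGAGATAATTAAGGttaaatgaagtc

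The next windows hold AGGNTAGG, in intron 1 of CPEB4 (chr5:173908376-173908476, minus strand) and between genes nearest to LNPK (chr2:175820288-175820388, plus strand).
CPEB4: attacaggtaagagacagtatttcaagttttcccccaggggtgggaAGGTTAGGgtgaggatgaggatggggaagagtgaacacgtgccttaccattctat
LNPK: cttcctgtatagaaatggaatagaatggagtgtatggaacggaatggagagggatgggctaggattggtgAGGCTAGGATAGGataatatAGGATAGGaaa

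The only member with an ERE, nearest to MTPN (intergenic, at 52.3 kb from its transcription start site, or TSS), is shown over 121 bp (chr7:135924986-135925106, plus strand) with the ERE in capitals, near the edge of the window.
MTPN: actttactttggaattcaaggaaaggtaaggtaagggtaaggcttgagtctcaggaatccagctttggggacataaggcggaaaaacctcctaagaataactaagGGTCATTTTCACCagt

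The members were weak regions of the vehicle list, apart from a few exons. Fold enrichment is the authors' ratio of pooled ChIP signal to local background at the summit, and q is the peak caller's adjusted p-value. The median fold was 5.57 for members (95% order-statistic interval 5.49 to 5.81) and 7.31 for the other 2673 vehicle regions (7.13 to 7.47). The median -log10 q was 6.13 for members and 11.8 for the others, and the median width was 231 bp for members and 280 bp for the others. Only 9 members (3.93%) had a fold of 8 or more, against 1121 of the others (41.9%). Of all vehicle regions, 7.89% were members, and the share fell with strength: 19.2% of the lowest quartile of vehicle -log10 q, 10.7% of the next, 1.48% of the one above it and 0.412% of the highest. The lowest quartile alone supplied 139 of the 229 members. Taken singly, 12.9% of vehicle regions had no estradiol region and 20.2% had no LY500307 region. These values describe what the choice of members favoured and were given no test.

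**Figure D1:**
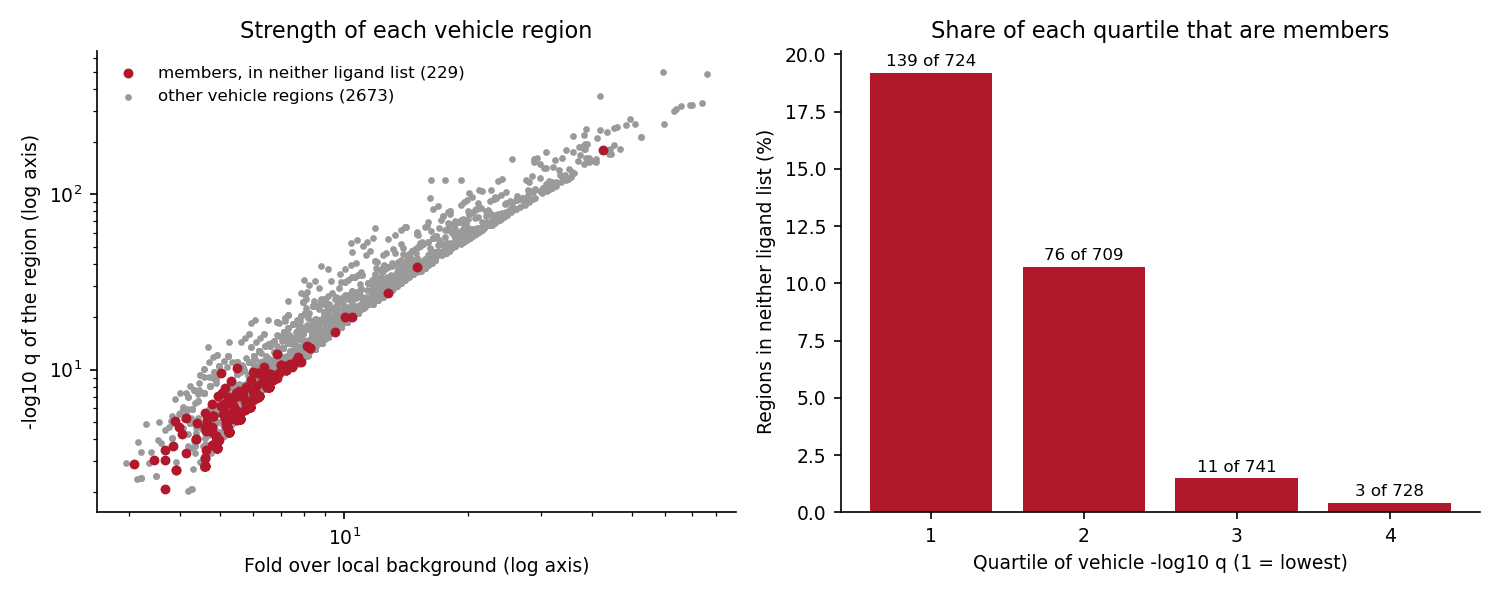
Left, fold over local background (log axis) against -log10 q (log axis) of every vehicle region, with members in red and other vehicle regions in grey. Right, the share of each quartile of vehicle -log10 q that were members, in percent: the lowest quartile holds 139 of 724 and the highest 3 of 728.

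The 6 members with the highest -log10 q were all exons of ESR2 or HDAC7. ESR2 gave 5 members, more than any other gene. The region over exon 2 (chr14:64282557-64283015), which holds the start codon, had a fold of 42.5 and a -log10 q of 179.3. The region at the coding end of exon 9 (chr14:64233104-64233379) had a fold of 15.0. Exon 3 (chr14:64279957-64280209), exon 7 (chr14:64249489-64249733) and exon 6 (chr14:64257169-64257368) had folds of 10.5, 7.20 and 6.58. The regions over exons 3, 6 and 7 covered their exons whole. That over exon 2 covered 392 of its 452 bases, all coding bases included. That at exon 9 covered 220 of 5007 bases, at the exon's coding end. None ran more than 67 bp past an exon edge.

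Across ESR2 as a whole, the 7 vehicle regions covered 1473 of 1590 coding bases (92.6%), 66 of 5252 untranslated exon bases (1.26%) and 632 of 59213 intron bases (1.07%). The uncovered coding bases were those of exon 4, which is 117 bp long. Exons 5 and 8 had vehicle regions with folds of 23.3 and 14.4, and were no members because a ligand region overlapped them. With estradiol, ESR2 had 2 regions: exon 8 with a fold of 31.9, and a stretch of the 3′ untranslated part of exon 9 with a fold of 11.0 that began 240 bp past the member there. With LY500307 it also had 2, at exon 8 with a fold of 12.8 and at exon 5 with a fold of 7.64. So the vehicle list touched 7 of the 8 coding exons, against 1 with estradiol and 2 with LY500307. The cells carry an added copy of the ER-beta coding sequence under doxycycline control. Whether DNA of that copy entered these regions was not tested.

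HDAC7, which encodes a deacetylase that works with corepressors such as NCOR, gave 4 members of 13 vehicle regions. Exon 5 (chr12:47797997-47798334) had a fold of 12.7, exon 17 (chr12:47789702-47789927) a fold of 10.1, exon 8 (chr12:47796107-47796414) a fold of 9.48, and exons 18 and 19 together (chr12:47789129-47789571) a fold of 6.86. The other 9 vehicle regions, with folds of up to 30.4, each overlapped an LY500307 region. Vehicle regions covered 2692 of 2973 coding bases of HDAC7 (90.5%) and none of its 1240 untranslated bases, against 395 coding bases (13.3%) with estradiol and 2118 (71.2%) with LY500307. Unlike those of ESR2, these regions also reached well into introns, over 4127 of 32969 intron bases (12.5%). No region was listed over exons 1, 2, 9, 16 or 26, and LY500307 regions were also missing from exons 5, 8, 17, 18 and 19, where the members lay, and from exon 24. Counted as genes with 3 or more internal exons covered over at least 50% of their length, ESR2 (6 of 7) and HDAC7 (21 of 24) were the only genes of the vehicle list. HDAC7 (15 of 24) and KCP (3 of 38) were the only ones of the LY500307 list. The estradiol list had 21 such genes, none of them ESR2 or HDAC7. No label links HDAC7 to the construct, and the origin of its exon pattern was not tested.

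**Figure D2:**
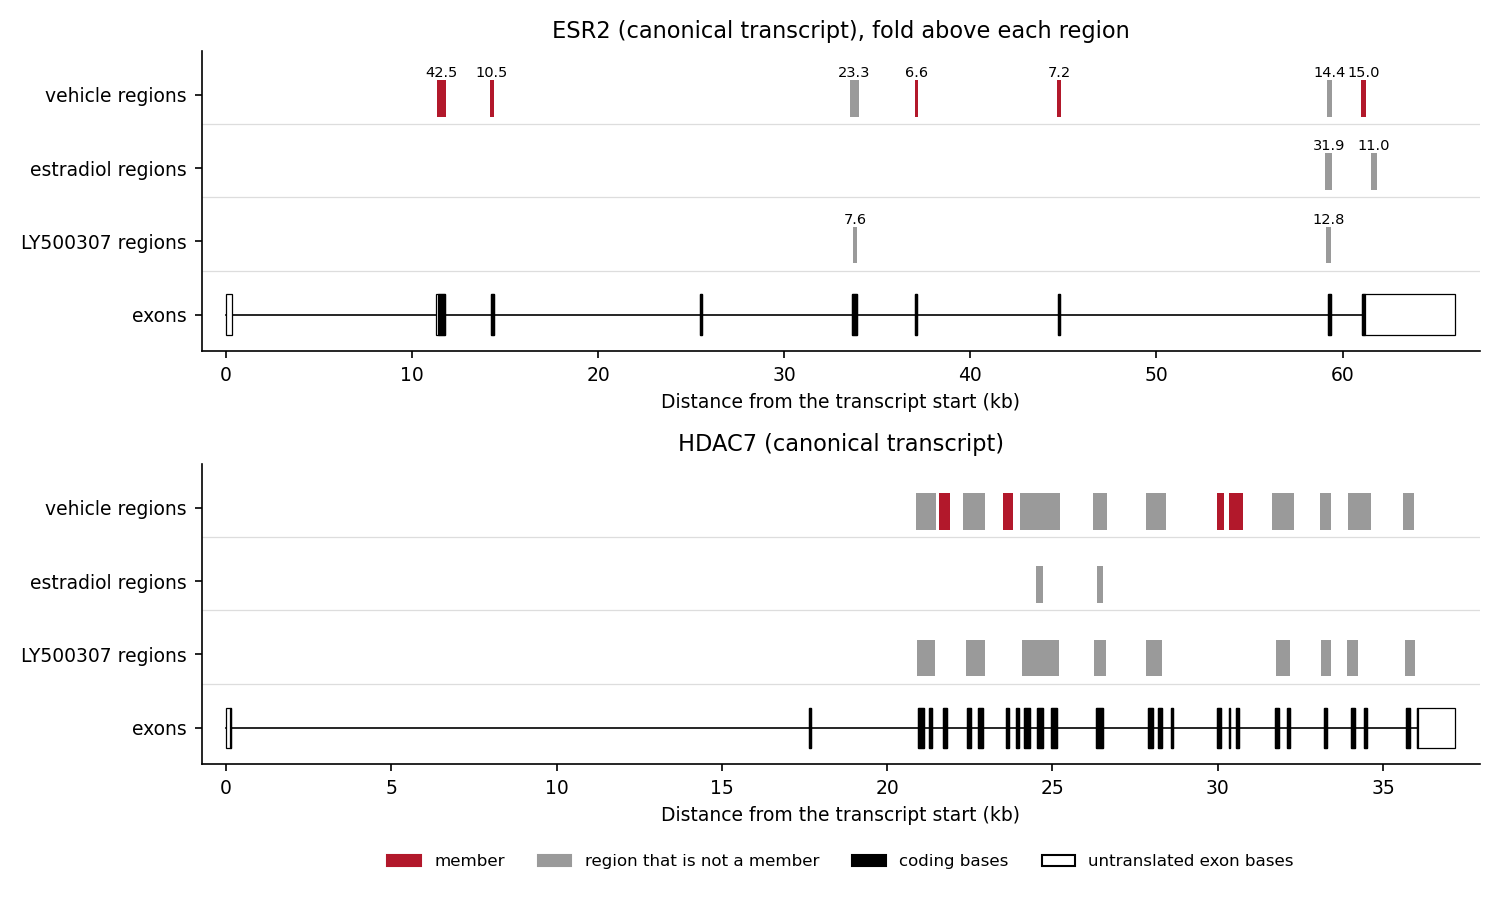
Regions of the 3 lists over ESR2 (top, with the fold of each region printed above it) and HDAC7 (bottom), in kb from the start of the canonical transcript; red boxes are members and grey boxes are regions that are not. Vehicle regions sit on 7 of 8 coding exons of ESR2 and on most of those of HDAC7, and the ligand rows hold fewer.

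Among the other 220 members no fold exceeded 8.24, and the median was 5.57. The next by -log10 q lay in introns. Intron 12 of CNTNAP2, a gene for a neurexin-like adhesion protein (chr7:147594990-147595272), had a fold of 8.11 and was 407892 bp from the nearest ligand region. Intron 29 of ROBO1, a receptor gene for SLIT guidance proteins (chr3:78602674-78602962), and intron 1 of CPEB4, a gene for an RNA-binding regulator of polyadenylation (chr5:173908317-173908606), had folds of 8.24 each. An intergenic region 45.3 kb from RUNX3, a runt transcription factor gene (chr1:24884890-24885121), had a fold of 7.73. Intron 6 of ERC2, a presynaptic scaffold gene (chr3:56126686-56127014), had a fold of 7.63, as did an intergenic region 292.5 kb from XKR9. Intron 1 of KALRN (chr3:124157021-124157259), had a fold of 7.85. Exon 1 of NELFB, a subunit gene of the negative elongation factor that pauses RNA polymerase (chr9:137255383-137255655), had a fold of 7.38. These complete the 15 highest by -log10 q, of which 7 were ESR2 or HDAC7 exons and 7 were intronic or intergenic.

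By position, 83 member summits (36.2%) were intronic, 69 (30.1%) intergenic, 48 (21.0%) in promoters, 21 (9.17%) in coding exons, 6 in 5′ UTRs and 2 in 3′ UTRs. A promoter here runs from 1000 bp upstream to 100 bp downstream of the TSS of a protein-coding gene. Promoter summits were 21.0% of members and 19.0% of the other vehicle regions, a difference of 1.92 percentage points with a 95% Newcombe interval of -3.09 to 7.83. The direction turned to -2.09 points among regions with a -log10 q of 5 or more, to -5.57 with regions up to 1000 bp apart counted as shared, and to -4.52 in the lowest quartile of -log10 q. These intervals cover counting error only, since regions of 1 pooled list are not replicates. The others are mostly vehicle regions in all 3 lists, of which 16.5% had a promoter summit. Promoter summits were 40.2% of vehicle regions that overlapped an estradiol but no LY500307 region. They were 5.52% of those that overlapped an LY500307 but no estradiol region. Coding-exon summits were 9.17% of members and 3.97% of the others, a difference of 5.20 points (2.01 to 9.70). Without the ESR2 and HDAC7 regions it was 1.81 points (-0.625 to 5.70), and in the lowest quartile of -log10 q it was -1.05 points (-4.93 to 4.64). Coding-exon summits were 8.43% of vehicle regions shared with estradiol alone, 5.52% of those shared with LY500307 alone and 3.13% of those in all 3 lists. The higher share was thus not particular to members. Any overlap with an exon was seen at 34.5% of members and 27.9% of the others, a difference of 6.55 points (0.446 to 13.1). It turned to -11.9 points (-20.6 to -2.69) within the lowest quartile, where 38.8% of members and 50.8% of the others met an exon. Of the 12 coding-exon members in genes other than ESR2 and HDAC7, 11 were in an exon 1, among them MCL1, an anti-apoptotic BCL2-family gene with a fold of 5.73, and their folds ran from 3.67 to 7.38.

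Promoter members had folds of 3.09 to 6.72 and a median G+C content of 64.2%, against 70.1% at other vehicle promoters. The highest by -log10 q was at SLC7A6, an amino acid transporter gene (chr16:68264642-68264902, fold 6.72). It was followed by SUMO2, a gene for a ubiquitin-like modifier (chr17:75182474-75182841, fold 6.50), and BLOC1S6, a gene for an organelle-biogenesis subunit (chr15:45587515-45587728, fold 6.05). OSER1 (fold 5.54), BCL9L, a beta-catenin coactivator gene (5.04), DR1, a gene for a repressor that binds the TATA-binding protein (6.11), and MANF, an endoplasmic reticulum stress-response gene (5.60), were further down. CWC27, a spliceosome gene (5.35), and PFKP, a phosphofructokinase gene of glycolysis (5.81), were also among the 10 highest. At 10 of the 48 promoters the window served TSSs on both strands, as at DNAJB9 and THAP5. This count was not set beside that of other vehicle promoters, so it is not given as a trait of members.

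Many promoter members lay close to a ligand region. Of the 48, 22 (45.8%) lay within 1 kb of an estradiol or LY500307 region, against 21 of the other 181 members (11.6%). Over all members 43 (18.8%) were that close, 35 of them nearest to an estradiol region, and 38 of the 43 lay within 2500 bp of a TSS. The median distance to the nearest ligand region was 23.3 kb, and 145 members (63.3%) were more than 10 kb away. The nearest of all were exon 1 of TICRR (1 bp, fold 4.81), exon 1 of MCL1 (4 bp), intron 1 of ZBTB7A (6 bp, fold 6.18), the OSER1 promoter (11 bp) and exon 2 of STOML2 (22 bp, fold 3.85). Just on the other side of the 1 bp limit were vehicle regions at KMT2A (4 bp of overlap, fold 5.30), near FRMD8 (6 bp, 3.48), CAMSAP2 (26 bp, 4.24), SMCHD1 (29 bp, 4.92) and CEP112 (31 bp, 4.89). Only 9 of the 2673 other regions overlapped a ligand region by 50 bp or less.

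**Figure D3:**
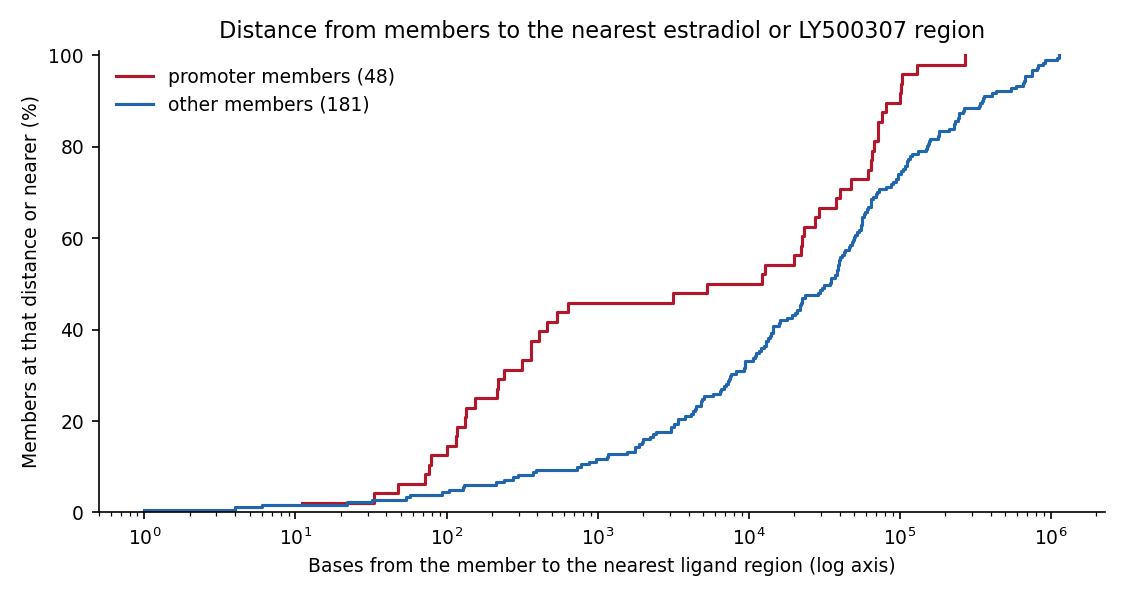
Cumulative share of members (percent) by the number of bases to the nearest estradiol or LY500307 region (log axis), for the 48 promoter members and the 181 others. The promoter line reaches 45.8% by 1 kb, where the other line is at 11.6%.

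EREs were scarce at members, as they were at vehicle regions shared with a single ligand. In a window of 100 bp on each side of the summit, GGTCANNNTGACC with at most 1 mismatch in its 10 fixed bases was found, on both strands, at 1 of 229 members (0.437%) and at 434 of the other 2673 vehicle regions (16.2%), a difference of -15.8 points (-17.3 to -13.4). Over all 2902 vehicle regions the share was 15.0%, and in windows 2000 bp downstream of members it was 0.437%. Members within the lowest quartile of -log10 q had 0 in 139, which allows a share of up to 2.16%, against 24 of 585 others (4.10%), a difference of -4.10 points (-6.03 to -1.10). The difference was thus smaller among weak regions. The single arm AGGTCA, which an ERE can contain, was at 10.5% of members and 37.8% of the others, while 14.4% of the members' downstream windows held it. These low shares were not particular to members, since the others are mostly the 2172 vehicle regions in all 3 lists. Those held an ERE at 19.8% and the arm at 44.2%. Vehicle regions shared with LY500307 alone held an ERE at 0 of 145, which allows up to 2.07%, and the arm at 15.9%. Vehicle regions shared with estradiol alone held an ERE at 5 of 356 (1.40%) and the arm at 7.30%. Regions found with LY500307 alone held an ERE at 6 of 671 (0.894%) and the arm at 11.6%. The 17442 regions found with estradiol alone, by contrast, held an ERE at 12.2% and the arm at 43.4%. The MTPN region, with a fold of 5.66 and a -log10 q of 7.36, lay 880 bp from an estradiol region.

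Elements of AP-1 and RUNX were also less frequent at member summits than in the pooled other vehicle regions, and the differences for other factors had intervals that held 0. All were exact matches on both strands. The AP-1 element (TGAGTCA or TGACTCA) was at 3 members (1.31%) and at 11.2% of the others, a difference of -9.91 points (-11.4 to -7.19). The members' downstream windows held it at 4.37%. In the lowest quartile the AP-1 difference was -1.30 points (-3.26 to 2.51). The RUNX element TGTGGTT was at 3 members (1.31%) and at 4.19% of the others (-2.88 points, -4.08 to -0.314). The members' downstream windows held RUNX at 4.37%. Its interval was not adjusted for the 13 elements searched, and its difference was not computed within the lowest quartile. For AP-1 the members were again nearer to vehicle regions shared with a single ligand, and to regions found with LY500307 alone, than to regions in all 3 lists. AP-1 was at 1.31% of members, 1.12% of vehicle regions shared with estradiol alone and 3.45% of those shared with LY500307 alone. Regions found with LY500307 alone held it at 2.38%, vehicle regions in all 3 lists at 13.4% and regions found with estradiol alone at 13.5%. RUNX was at 1.31% of members and at 1.40%, 3.45%, 1.19%, 4.70% and 4.76% of those sets in the same order. For RUNX, vehicle regions shared with LY500307 alone were thus nearer to the pooled others (4.19%) than to members. The SP1 element GGGGCGGGG was at 5.68% of members and 4.49% of the others (1.19 points, -1.29 to 5.05). The GATA element AGATAA was at 10.0% of members and 7.71% of the others (2.34 points, -1.09 to 7.01). Its difference in the lowest quartile was 4.74 points (0.431 to 10.9). At 10.9%, the members' downstream windows held GATA no less often than their summits. Vehicle regions shared with LY500307 alone held GATA at 20.7%, those shared with estradiol alone at 2.53% and regions found with LY500307 alone at 15.5%. The TEAD element GGAATG was at 12.2% of members and 15.2% of the others (-3.00 points, -6.89 to 2.05), and the NFY element CCAAT at 39 of 229 members and 15.1% of the others (1.92 points, -2.62 to 7.48). The ETS element CCGGAAG was at 1.75% of members and 3.07% of the others, and the FOXA element TGTTTAC at 1.75% of members and 1.38% of the others. The E-box CACGTG was at 3.06% of members and 3.70% of the others, and the CRE TGACGTCA at 0.873% of members and 0.412% of the others. The intervals of these 4 differences held 0.

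**Figure D4:**
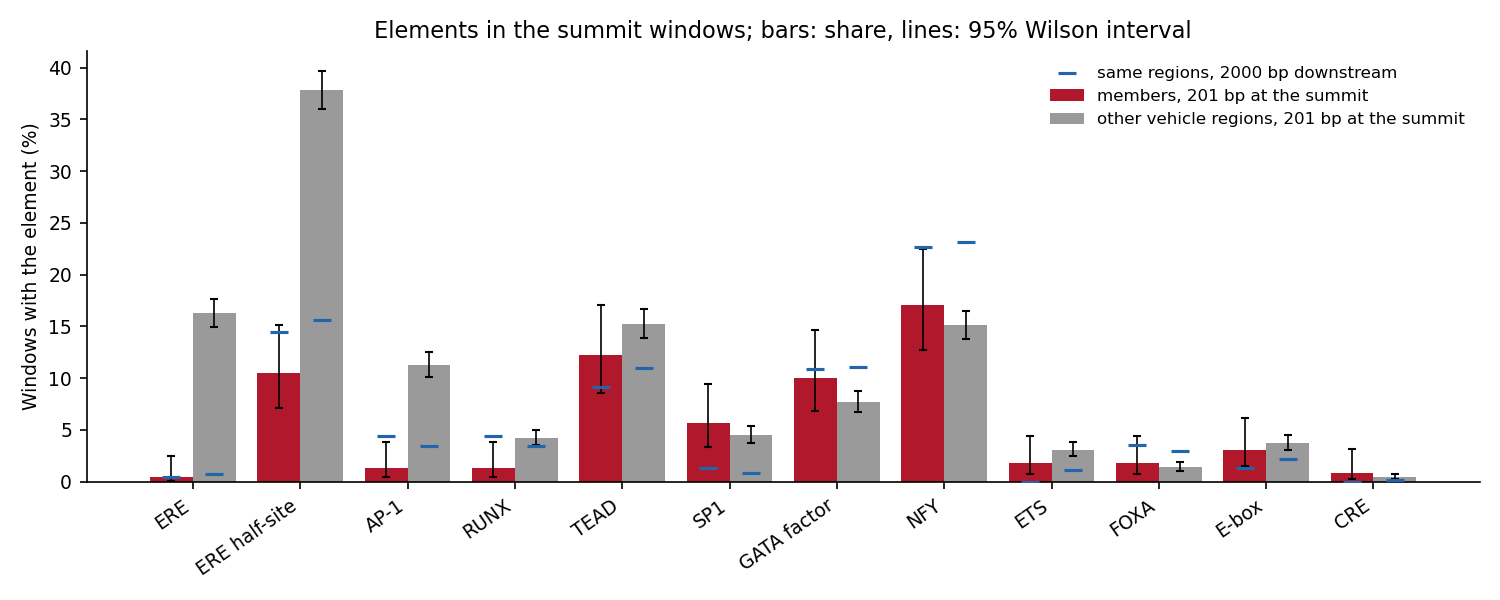
Share of summit windows (percent, 100 bp on each side of the summit) with each element in members (red) and other vehicle regions (grey), with 95% Wilson intervals; blue dashes give the same regions' windows 2000 bp downstream. The ERE stands at 0.437% in members and 16.2% in the others.

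Members were lower in G+C than the other vehicle regions. The median G+C content of the summit window was 50.2% in members (46.8 to 53.7) and 58.2% in the others (57.2 to 58.7), and 133 members (58.1%) were under 55%, against 41.0% of the others. In the lowest quartile of -log10 q the medians were 55.2% in members and 69.2% in the others. Intronic and intergenic members more than 2500 bp from a TSS, 120 in all, had a median of 41.3%, against 51.7% in the 1483 other vehicle regions so placed.

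Purine-rich words were frequent at the summits of these AT-richer members. Among the 133 members under 55% G+C, the 7-base words that stood furthest above flanking windows 2000 and 3000 bp to each side were AAGGAAA (30.8% of summits, 9.77% of flanks), AAGGAAG (27.1%, 6.39%) and CCTTTCC (24.1%, 3.76%), counted on both strands. In the other vehicle regions under 55% G+C these were at 13.4%, 12.8% and 9.50% of summits. From such words and the members' own sequences 5 patterns were written down, and because they were chosen from these members their shares are a description with no test. All were sought on both strands in the same windows, and a window may hold several: AAGGGAG can overlap the start of the spaced pair, and the repeat can fall in a purine run.

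AAGGGAG was at 36 members (15.7%), against 6.43% of the other vehicle regions and 3.49% of the members' downstream windows. AGGNTAGG was at 30 (13.1%), against 7.52% of the others and 0.437% downstream. Tandem copies of GGAAA, searched as GGAAAGGAAAGG and called the GGAAA repeat, were at 13 members (5.68%) and 20 of the others (0.748%). The repeat was at 0 of 229 downstream windows, which allows up to 1.31%. The spaced pair was at 19 members (8.30%), against 2.66% of the others and 0.437% downstream. An unbroken run of 25 or more purines (or pyrimidines, read on the other strand) was at 20 members (8.73%), against 1.98% of the others and 0.873% downstream. The longest such run in a member window, 170 bases, was in an intronic GGAAA-repeat region of VPS13D, a gene for a lipid-transfer protein (chr1:12285854-12286118, fold 6.64). Another repeat member lay in an intron of ESRRG, the gene of an orphan receptor related to the estrogen receptors (chr1:216569107-216569307, fold 5.24); both genes are named after their values were seen.

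The 5 patterns were chosen from members, so the interval of their share in members does not cover that choice. Any of the 5 patterns was present at 87 members (38.0%, Wilson interval 32.0 to 44.4), against 446 other vehicle regions (16.7%, 15.3 to 18.1), 18.4% of all vehicle regions and 12 of the members' downstream windows (5.24%). In the lowest quartile of -log10 q it was at 34.5% of members and 13.8% of the others. Among intronic and intergenic members beyond 2500 bp of a TSS it was at 71 of 120 (59.2%), against 22.0% of other vehicle regions so placed. Among promoter members it was at 8 of 48 (16.7%). Members within 1 kb of a ligand region had it at 3 of 43 (6.98%), and those more than 10 kb away at 68 of 145 (46.9%). In members the repeat was at a median of 10.5 bp from the summit, the spaced pair at 24.5 bp, AGGNTAGG at 27.0 bp and AAGGGAG at 30.0 bp. Apart from that of the repeat, these distances were like those of common elements, with TEAD at 27.5 bp, NFY at 32.0 bp and GATA at 35.5 bp. The single ERE arm AGGTCA lay at 46.5 bp.

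The 5 patterns were more frequent in the sets without estradiol regions. They were at 38.0% of members, at 66 of the 145 vehicle regions shared with LY500307 alone (45.5%, 37.6 to 53.6) and at 260 of the 671 regions found with LY500307 alone (38.7%, 35.1 to 42.5). They were at 48 of the 356 vehicle regions shared with estradiol alone (13.5%, 10.3 to 17.4), at 332 of the 2172 vehicle regions in all 3 lists (15.3%, 13.8 to 16.9) and at 1581 of the 17442 regions found with estradiol alone (9.06%, 8.65 to 9.50). The GGAAA repeat alone was at 5.68% of members, 5.52% of vehicle regions shared with LY500307 alone and 4.47% of LY500307-alone regions. It was at 0 of 356 vehicle regions shared with estradiol alone, which allows up to 0.843%, and at 0.0745% of estradiol-alone regions. AGGNTAGG was at 13.1% of members, 23.4% of vehicle regions shared with LY500307 alone and 16.7% of LY500307-alone regions. The spaced pair was at 8.30%, 11.0% and 8.64% of these sets in the same order. AAGGGAG was at 15.7%, 15.2% and 14.8% of them, and the purine run at 8.73%, 6.90% and 7.60%. Median G+C also differed between these sets, and was 50.2% in members, 43.3% in vehicle regions shared with LY500307 alone, 45.3% with LY500307 alone, 71.1% in vehicle regions shared with estradiol alone, 56.7% in all 3 lists and 54.2% with estradiol alone. The part of base composition in the pattern shares was not tested. Windows under 55% had a pattern at 55.6% of members and 27.9% of other vehicle regions, with median G+C of 42.3% and 47.3%. The patterns came partly from words picked in these same members under 55%, so the members' share there is a description. At 55% or more a pattern was at 13.5% of members and 8.87% of other vehicle regions. Median fold differed between the sets as well. It was 5.57 in members, 5.50 in vehicle regions shared with estradiol alone and 6.22 in those shared with LY500307 alone. It was 5.40 with LY500307 alone, 7.59 with estradiol alone and higher still in vehicle regions in all 3 lists. The part of strength in the pattern shares was not tested.

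**Figure D5:**
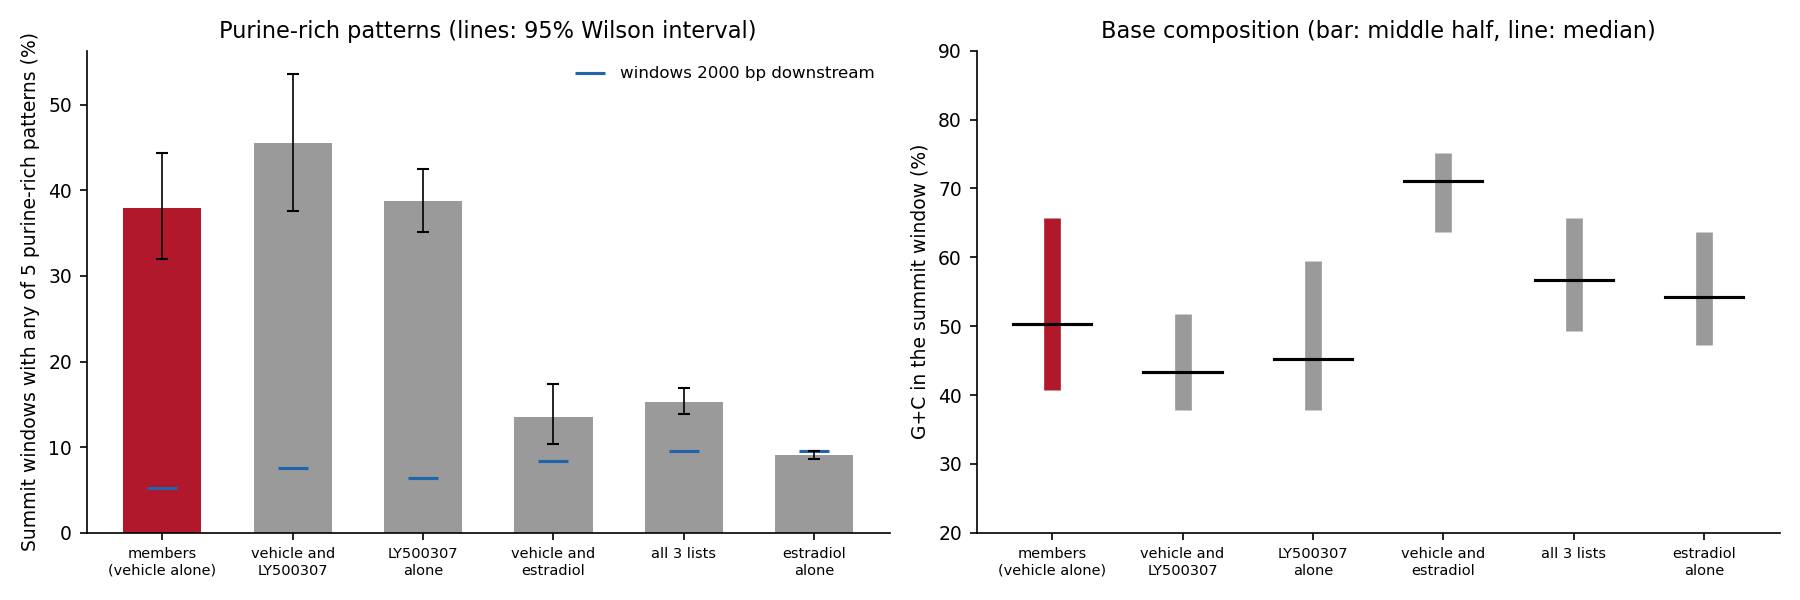
Left, share of summit windows (percent) with any of the 5 purine-rich patterns in members and in 5 other sets of regions by the lists they appear in, with 95% Wilson intervals and the windows 2000 bp downstream as blue dashes. Right, median (black line) and interquartile range (bar) of G+C content in percent. Members, at 38.0%, stand with the sets that hold LY500307 regions without estradiol. The patterns were chosen from the members' own sequences, which the interval for members does not cover.

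Members were spread over the gene lists at about the share of all genes. Among 26 estrogen response genes, such as TFF1, GREB1 and PGR, 8 had a vehicle region within 20 kb of a TSS and 0 had a member, a count too small to set against the share of 9.59% over all protein-coding genes. The counts were likewise 0 members with 6 of 14 nuclear receptor cofactor genes, 4 of 18 AP-1 and immediate early genes and 2 of 17 NF-kB and inflammatory genes near a vehicle region. The histone deacetylases gave 1 (HDAC7) of 3, the actin and focal adhesion genes 1 (FLNA) of 9, the translation genes 1 (RPL10) of 6 and the TGF-beta pathway 1 (SMAD3) of 3. Over all 135 listed genes, 4 of the 41 with a vehicle region nearby had a member (9.76%), close to 221 of 2305 over all protein-coding genes (9.59%). FLNA and RPL10 shared 1 member, in intron 1 of EMD (chrX:154379479-154379734, fold 5.57). SMAD3, a signal transducer of TGF-beta, had a promoter member (chr15:67066995-67067383, fold 3.67) 364 bp from a ligand region.

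Apart from ESR2 and HDAC7, no gene had more than 2 members. BTBD9 (2), GRIN3A, a glutamate receptor subunit gene (2), SORCS1, a sorting receptor gene (2), and UBAP2 (2) were the others, with folds of 4.81 to 6.55. Those of GRIN3A and SORCS1 were intergenic, between 459.7 and 1331.8 kb from the TSS. In all, 6 genes had 2 or more members, of 218 that held or were nearest to a member. Among the other 2673 vehicle regions, 385 genes had 2 or more. These counts were not compared as shares.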

How the data were processed

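The authors deposited 1 narrowPeak list of enriched regions per treatment, which per the labels belongs to all 4 ChIP libraries of that treatment and was read as a pooled list. Per the submitters' processing notes the genome build was hg38 and the tools were MACS2 2.1.1.20160309, Bowtie2 2.2.6 and DiffBind. Their roles are not given in the sources used here. Each deposited region has a fold (the authors' ratio of signal over local background), a -log10 q and a summit offset. Reads, inputs and single libraries were not analysed here, so the depth is unknown.

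Regions on chromosomes 1 to 22 and X were kept: 10045 of 10059 records after LY500307, 26861 of 26896 after estradiol and 2902 of 2911 after ethanol. Lists were compared by overlap of at least 1 bp. Summits were placed with GENCODE 44 in the order promoter, 5′ UTR, coding exon, 3′ UTR, intron, intergenic, and a member was given to the gene that holds its summit or else the nearest protein-coding TSS. Motifs were sought in hg38 on both strands, 100 bp to each side of the summit. Shares carry 95% Wilson intervals, differences of shares Newcombe intervals and medians order-statistic intervals, and a count of 0 was given an upper limit of 3 counts. Code was tested on simulated data and run in Python 3.11.15 with pysam 0.24.0, statsmodels 0.14.6, scipy 1.17.1, matplotlib 3.10.9 and numpy 2.4.6.

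The members and gene lists were chosen with earlier results of these data known. Members named are the 15 highest by -log10 q, the 10 highest by fold, up to 10 coding-exon and 10 promoter members by -log10 q, those with an ERE, genes with 2 or more members, the 5 nearest to a ligand region and those near listed genes. 1 promoter member that this rule names is not reported here. KCNA5, CHRM3, LNPK, VPS13D, ESRRG and the KCP and DNAJB9 sites were named after their values were seen, and the purine patterns after the sequences were read.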

Additional observations from a re-analysis of the deposited data

How the results depend on the processing

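No paired analysis was possible because each treatment has 1 pooled list, and for the same reason no replicate could be left out. Over 55 alternatives to 12 results, the number of members moved beyond 1.5 times only when sharing was judged by summits within 200 bp (371 members). Among vehicle regions with a -log10 q of 5 or more the median fold was 5.89 and the median G+C 46.3%. There, the difference for promoters was -2.09 points and that for exon overlap 5.52 points (-1.31 to 13.2). With regions up to 1000 bp apart counted as shared, the median G+C was 45.5%, and the differences were -0.876 points for SP1, -5.57 for promoters, 2.22 for coding exons and -1.12 for exon overlap. In the lowest quartile of -log10 q, chosen after seeing the data, they were -1.30 points for AP-1, -1.35 for SP1, 4.74 for GATA (0.431 to 10.9), -4.52 for promoters, -1.05 for coding exons and -11.9 for exon overlap. Without ESR2 and HDAC7, also chosen after seeing the data, they were 1.81 points for coding exons and 4.17 for exon overlap. A narrower window of 50 bp to each side of the summit gave 2.42 points for SP1 (0.356 to 5.94), and a wider one of 200 bp to each side gave 6.23 points for GATA (1.17 to 12.2). The cause of these shifts was not tested. The ERE difference stayed below 0 under every alternative run.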

Other observations

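Chromosome 1 held 24 members and chromosome 6 held 23, while chromosomes 13 and 21 held 0. Members were 14.3% of the vehicle regions of chromosome 4 (15 members), 12.1% of those of X (7) and 11.7% of those of chromosome 6, against 3.90% on chromosome 19 (6), 2.38% on chromosome 18 (1) and 1.92% on chromosome 22 (1). With few members on most chromosomes these shares are imprecise, and no interval was computed for them. Counted instead as a share of all members, the 15 members of chromosome 4 were 6.55%, with a Wilson interval of 4.01 to 10.5.

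The distance between GGGAGA and the AAGG after it was counted for 0 to 20 bases between them. In member summits it was most often 6 bases (10 members) and 5 bases (9), against 6 with 7 bases and 5 with 8. In the 671 regions found with LY500307 alone, 31 had 5 bases and 27 had 6, against 15 with 7. In the 2172 vehicle regions of all 3 lists, 29 had 5 bases and 21 had 6, against 8 with 4 and 6 with 7. Since the pair was first seen in members, their own counts are a description.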
